A study of Mus musculus with 15 samples.

Results

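Signals of 7 genes were followed in mouse heart muscle cells over 26 days after a whole-body proton exposure: *Ctnnal1*, *Rnf144b*, *Ifrd1*, *Tmem88b*, *Dhrs7c*, *Tmem109* and *Slc30a5*. They have no pathway in common and were chosen because their signals on these same arrays differed between days or between irradiated and sham samples. The choice therefore rests on the values described here, and the levels and differences of the 7 genes are given as a description, without a test. Each gene was found by its symbol in the annotation of the array and has 1 probe set there. All 7 passed the filter on low signal, and they are 7 of the 12102 genes that did.

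Male C57Bl/6NT mice aged 8 to 9 months received 90 cGy of 1 GeV protons over the whole body or a sham exposure, and RNA was taken from left ventricular cardiomyocytes freed with collagenase and selected on a calcium gradient. Arrays (Affymetrix Mouse Gene 1.0 ST) came from cells isolated 1, 3, 5, 12 and 26 days after protons, with 2, 3, 3, 2 and 2 arrays, and from sham mice, with 2 arrays on day 1 and 1 on day 3. Titles of the samples gave these days; the design text of the series has 1, 3, 7, 14 and 28. No sham array of day 5, 12 or 26 was analysed, so the 3 sham arrays served as the reference for every day, and what differs between late and early days other than protons cannot be told apart from the exposure. The labels do not say that replicates came from separate mice, so errors measure the spread between these samples, which may be technical. They do say that the suspension may have held some inflammatory or endothelial cells.

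The 7 proteins do different work. *Ctnnal1* encodes alpha-catulin, a relative of alpha-catenin and vinculin. *Rnf144b* encodes an E3 ubiquitin ligase of the RING-between-RING class and is a known target of p53. *Ifrd1* encodes a transcriptional co-regulator that recruits SIN3 and histone deacetylase complexes and is studied in muscle differentiation and regeneration. *Tmem88b* is a little-described relative of *Tmem88*, whose product binds Dishevelled and restrains canonical Wnt signalling during heart development. The other 3 proteins sit in internal membranes: Dhrs7c is a short-chain dehydrogenase/reductase of the sarcoplasmic reticulum of striated muscle, Tmem109 (mitsugumin 23) is a cation channel of the endoplasmic and sarcoplasmic reticulum, and Slc30a5 (ZnT5) carries zinc into the early secretory pathway as a partner of Slc30a6.

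The 7 genes did not all vary between days to the same degree. The range between days, taken as the highest minus the lowest mean of the 5 proton days on the log2 scale, was 1.11 for *Ctnnal1*, 0.96 for *Dhrs7c*, 0.83 for *Tmem88b*, 0.82 for *Rnf144b*, 0.44 for *Tmem109*, 0.41 for *Ifrd1* and 0.27 for *Slc30a5*. The median range over all 12102 genes was 0.285 and the 95th percentile was 0.730, so the first 4 lay above that percentile and *Slc30a5* lay below the median. A range of at least that of *Slc30a5* was found in 53.7% of genes. *Ctnnal1*, *Rnf144b* and *Dhrs7c* ranked 4, 5 and 9 of all genes by the F statistic for differences among the proton days. *Tmem88b* ranked 52, *Tmem109* 158, *Ifrd1* 177 and *Slc30a5* 3006. These ranks are descriptive, since the 7 were chosen on such differences. In limma's F-test 0 of the 12102 genes passed an adjusted p of 0.05 (lowest adjusted p = 0.0868). On the deposited scale *Slc30a5* was thus not among the genes that varied most between days, and it stood 0.35 to 0.62 above sham on every day. Its range depended on the handling of the data. With equal array medians it was 0.43, above *Ifrd1* (0.37) and *Tmem109* (0.33). With the atrial and conduction marker list as a covariate it was 0.41, and with 1 array left out it was up to 0.34. The median range of all genes was not taken under these alternatives. *Ifrd1* and *Tmem109* combined a modest range with a small spread within groups, with residual SDs of 0.0764 and 0.0854 against a median of 0.165 over all genes.

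**Figure D1:**
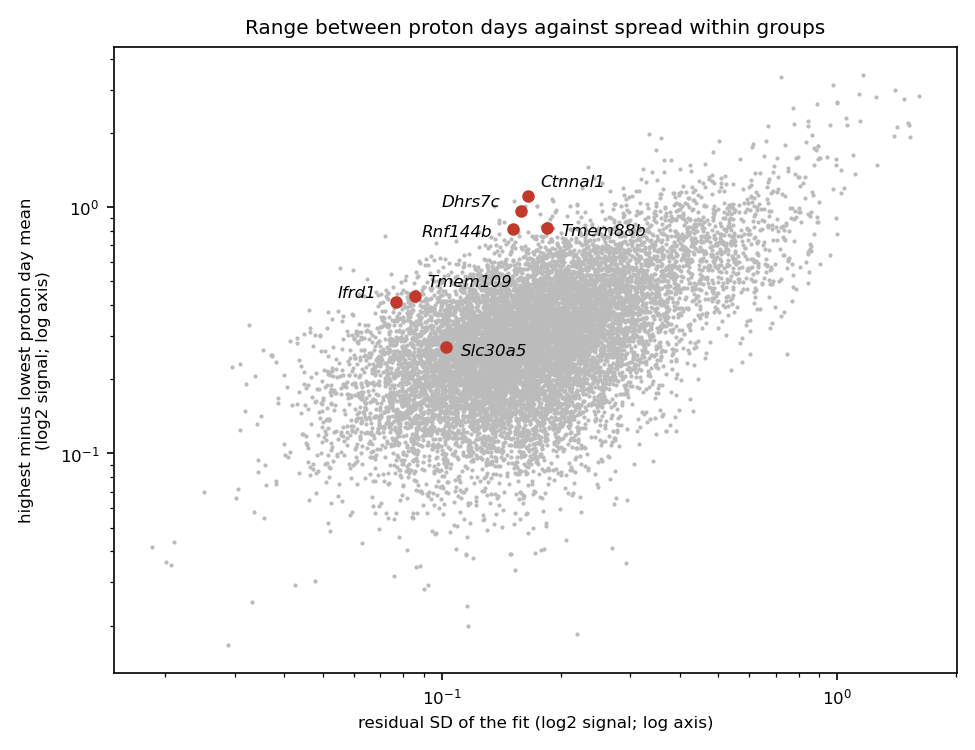
Range between proton day means (y, log2 signal, log axis) against the residual SD of the fit (x, log2 signal, log axis) for 12102 genes in grey and the 7 genes in red. Ctnnal1 (1.11), Dhrs7c (0.96), Tmem88b (0.83) and Rnf144b (0.82) sit at the upper edge at a middling spread, Tmem109 (0.44) and Ifrd1 (0.41) at the upper edge at a low spread, and Slc30a5 (0.27) inside the cloud.

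Array medians ran from 4.90 to 5.16 and 95th percentiles from 9.11 to 9.16 (log2 signal), so arrays were closer at the upper end than at the median. Making the array medians equal moved the median difference of all genes from sham on day 26 from 0.05 to -0.05. Replicates 1 and 2 of proton day 5 differed from each other with an SD of 0.0768 over the genes tested, against 0.222 to 0.527 for the other 104 of 105 pairs of arrays, and were counted as 1 sample, which left 14 samples. All 16 cardiomyocyte markers were measured, with list means of 11.31 to 11.43 in every sample. Of the neutrophil list 5 of 11 markers passed the filter on low signal (*S100a8* and *Mpo* did not), and its mean was 5.35 to 6.30 in sham and 6.62 to 7.72 on day 1. The lymphocyte list (8 of 13, without *Cd3d*, *Cd3g* and *Ms4a1*) had means of 4.99 to 5.31 in sham and 6.27 to 6.37 on day 26. It was above every sham sample on days 1 (5.64 to 5.71), 5 (5.85 to 6.14) and 12 (5.37 to 6.35) as well. The endothelial (14 of 15 markers), fibroblast (11 of 12) and macrophage (13 of 16) lists were wholly above sham on day 1, with 7.98 to 8.23 against 7.55 to 7.93, 7.62 to 7.89 against 7.04 to 7.42, and 6.92 to 7.50 against 6.30 to 6.76. The fibroblast list was also above all sham samples on days 5 (7.64 to 7.77) and 26 (7.56 to 8.08), and the macrophage list on day 26 (6.98 to 7.11). On day 3 these 3 lists spread widely, for example from 7.15 to 8.31 for the endothelial list. The mesothelial and epicardial list (7 of 7) lay above all sham samples on day 5 (7.65 to 7.83 against 6.34 to 7.54). On day 26 the erythroid and platelet list lay below all sham samples (5.85 to 6.31 against 6.73 to 8.15) and the smooth muscle list (8 of 9) above them (7.61 to 8.12 against 7.26 to 7.59). In these bulk samples, fewer cells of a type and less RNA per cell cannot be told apart.

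*Ctnnal1* (chromosome 4, 56810935 to 56865375, GRCm38.p6) was high on day 3 and lowest on day 26. Its log2 signal was 7.89 and 7.90 on the sham arrays of day 1 and 7.41 on the sham array of day 3. After protons it was 7.97 and 8.07 on day 1, then 8.39, 8.49 and 8.61 on day 3. It was 7.51, 7.54 and 7.72 on day 5, 7.76 and 7.58 on day 12, and 7.39 and 7.38 on day 26. The day 3 arrays stood above all others, and the day 26 arrays lay just below the lowest sham array. Against the mean of sham the difference was 0.29 ± 0.14 (SE of the fit, n = 2 against 3) on day 1, 0.76 ± 0.13 (n = 3 against 3) on day 3, -0.11 ± 0.14 on day 5, -0.07 ± 0.14 on day 12 and -0.35 ± 0.14 on day 26 (n = 2 against 3 each). The day 3 value is a 1.70-fold higher signal than in sham, and the distance from day 3 to day 26 is 2.16-fold. Here and below, neighbours in the order of means differ beyond their spread if samples are apart and the difference exceeds the residual SD (here 0.165). Day 3 lay above day 1, and day 1 above sham, beyond their spread. Sham, day 12 and day 5 did not differ so, and day 5 lay above day 26 beyond it. For all 7 genes this rule is a description, because they were chosen on such differences. The share of all genes that meet it was not taken, so nothing more is read from it.

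The sham arrays of *Ctnnal1* spread from 7.41 to 7.90, and the day 1 value leaned on 1 of them. Without the sham array of day 3 the day 1 difference was 0.13, and the day 26 difference was -0.51. Against the sham array of the same day alone, day 3 was 1.09 higher. That comparison on day 3 gave 0.83 for *Rnf144b*, 0.43 for *Ifrd1* and 1.22 for *Tmem88b*. It gave -0.23 for *Dhrs7c* and 0.29 for both *Tmem109* and *Slc30a5*. With any single array left out, *Ctnnal1* on day 3 stayed 0.60 to 0.85 above sham and its range between days stayed 1.06 to 1.16. The day 3 arrays differed in the average of the macrophage, endothelial and fibroblast lists (-0.59, -0.70 and 0.48 relative to the mean of the 14 samples), and *Ctnnal1* was high on all 3. With that average as a covariate, the differences on days 3 and 26 were 0.77 and -0.40. The lymphocyte and smooth muscle lists were above and the erythroid and platelet list below sham on day 26, as given above, and their part in the low signal was not tested.

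*Rnf144b* (chromosome 13, 47122720 to 47247991) alternated between high and low days. Sham arrays gave a log2 signal of 7.85 and 8.14 on day 1 and 7.60 on day 3. Proton arrays gave 7.59 and 7.63 on day 1, 8.32, 8.47 and 8.50 on day 3, 8.21, 8.21 and 8.32 on day 5, 7.55 and 7.70 on day 12, and 8.44 and 8.41 on day 26. The arrays of days 3, 5 and 26 all lay above the highest sham array, while those of days 1 and 12 lay within or just below the sham arrays. Differences from sham were 0.57 ± 0.12 on day 3 (1.48-fold, n = 3 against 3), 0.40 ± 0.13 on day 5 and 0.56 ± 0.13 on day 26 (n = 2 against 3 each). They were -0.25 ± 0.13 on day 1 and -0.24 ± 0.13 on day 12. Days 3 and 26 did not differ beyond their spread, nor did sham, day 12 and day 1, whereas day 26 lay above day 5 and day 5 above sham by more than it.

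Markers of atrial and conduction cells (6 of 7 measured, *Sln* not past the filter) had higher list means on the same days as *Rnf144b*: 7.16 to 8.08 on day 3, 7.43 to 7.86 on day 5 and 7.34 to 8.42 on day 26, against 6.64 to 7.15 in sham, 6.61 to 7.14 on day 1 and 6.52 to 7.40 on day 12. Within days 3, 5, 12 and 26 the order of the arrays was the same for the list and for *Rnf144b*, and among the arrays of day 1 and of sham it was the opposite. The day 26 arrays of 8.42 and 7.34 on the marker list had 8.44 and 8.41 for *Rnf144b*. With that list as a covariate, added after the data were seen, the *Rnf144b* differences on days 3, 5 and 26 were 0.55, 0.38 and 0.54. The covariate draws on differences within small groups, whose direction was not the same in all groups. The part of atrial and conduction cells in the course of *Rnf144b* was not tested. Leaving out any 1 array kept day 26 between 0.43 and 0.70 above sham. Without sham day 1 replicate 2 the differences on days 1 and 12 were -0.11 and -0.10, and without the sham array of day 3 they were -0.39 and -0.37. Under quantile normalization the day 1 arrays moved below all sham arrays.

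*Ifrd1* (chromosome 12, 40203129 to 40223189) stood above sham on every day and highest on day 3. Its log2 signal was 7.55 and 7.56 on the sham arrays of day 1 and 7.74 on that of day 3. It was 7.75 and 7.77 on day 1 after protons, 8.12, 8.18 and 8.21 on day 3, 7.89, 7.89 and 7.81 on day 5, 7.76 and 7.94 on day 12, and 7.95 and 7.90 on day 26. No proton array was as low as the highest sham array, though on day 1 the gap was narrow and under quantile normalization those samples overlapped. Differences from sham were 0.14 ± 0.09 on day 1, 0.55 ± 0.08 on day 3 (1.47-fold), 0.23 ± 0.09 on days 5 and 12, and 0.31 ± 0.09 on day 26. Day 3 lay above day 26 and day 1 above sham beyond their spread, and days 26, 5, 12 and 1 followed each other within it. Both day 12 arrays mattered to that day's value, which was 0.14 or 0.32 with 1 of them left out. The *Ifrd1* differences were 0.11, 0.56, 0.22, 0.20 and 0.27 from day 1 to day 26 with the average of the macrophage, endothelial and fibroblast lists as a covariate.

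*Tmem88b* (chromosome 4, 155781591 to 155785874) had the highest single difference of the 7, on day 3. Sham arrays read 5.43 and 5.58 on day 1 and 5.19 on day 3 (log2 signal), not far above the filter of 5.00. Proton arrays read 5.79 and 5.47 on day 1, 6.48, 6.44 and 6.32 on day 3, 6.04, 5.99 and 6.12 on day 5, 5.93 and 5.47 on day 12, and 5.48 and 5.70 on day 26. Days 3 and 5 stood clear of sham, and on days 1, 12 and 26 at least 1 array lay among the sham arrays. The difference from sham was 1.02 ± 0.15 on day 3, a 2.02-fold higher signal, and 0.67 ± 0.17 on day 5 (1.59-fold). It was 0.23 ± 0.17 on day 1, 0.30 ± 0.17 on day 12 and 0.19 ± 0.17 on day 26. The steps from day 3 to day 5 and from day 5 to day 12 were beyond the spread, and days 12, 1 and 26 and sham could not be ordered. The day 12 value was 0.08 without replicate 1 and 0.53 without replicate 2. On day 1 it was 0.07 and 0.39 without proton day 1 replicate 1 and 2, and on day 26 it was 0.08 and 0.30 without proton day 26 replicate 2 and 1, 0.09 with equal array medians and 0.38 with the atrial list as a covariate.

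*Ifrd1* and *Tmem88b* followed each other more closely than any other pair of the 7, with a Pearson correlation of 0.71 over 14 samples. The samples share their arrays, scaling and days, so this describes these arrays. Their promoter windows are shown because the pair had the same peak day, day 3, which was also that of *Ctnnal1* and *Rnf144b*. Each of the 2 windows shown holds 250 bases before and 50 after the transcription start in RefSeq (GRCm38.p6, minus strand, 5′ to 3′), at chr12:40223140-40223439 for *Ifrd1* and chr4:155785825-155786124 for *Tmem88b*. Capitals mark matches on either strand to 6 motifs: the E-box CACGTG, the core of the unfolded protein response element TGACGTG, the core of the metal response element (TGCGCNC or TGCACNC), the cAMP response element TGACGTCA, the CCAAT box and the TATA box TATAAA. The single match is a CCAAT box on the reverse strand (ATTGG), 84 bases before the *Ifrd1* start.
Ifrd1: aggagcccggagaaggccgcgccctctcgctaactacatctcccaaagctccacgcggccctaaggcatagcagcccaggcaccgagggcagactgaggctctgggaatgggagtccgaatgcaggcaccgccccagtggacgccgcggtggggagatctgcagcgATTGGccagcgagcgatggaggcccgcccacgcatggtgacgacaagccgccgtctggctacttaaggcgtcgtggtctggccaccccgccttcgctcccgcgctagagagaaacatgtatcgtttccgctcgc
Tmem88b: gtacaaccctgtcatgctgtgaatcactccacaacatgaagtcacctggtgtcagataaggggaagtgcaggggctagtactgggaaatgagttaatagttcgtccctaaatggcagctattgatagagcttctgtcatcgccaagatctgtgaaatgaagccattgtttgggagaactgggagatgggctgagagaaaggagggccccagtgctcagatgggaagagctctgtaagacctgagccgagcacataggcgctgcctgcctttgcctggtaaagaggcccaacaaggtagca
The *Ifrd1* window has 65.7% G and C and 29 CpG dinucleotides. The *Tmem88b* window has 51% and 4, against medians of 52.7% and 7 over 32851 mouse windows. A CCAAT box was in 37.4% of all windows. No other motif of the 6 was spelled in either of these windows. The pair with the closest time courses thus had promoter windows of different base composition. Windows of the other genes highest on day 3 had 70.3% G and C (*Ctnnal1*) and 62.7% and 60.7% (*Rnf144b*).

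*Dhrs7c* (chromosome 11, 67798271 to 67816002) was lowest on day 26, the only day on which all its samples lay below all sham samples. Its log2 signal was 9.65 and 9.82 on the sham arrays of day 1 and 10.05 on that of day 3. Proton arrays gave 10.22 and 9.94 on day 1, 9.66, 9.84 and 9.98 on day 3, 10.27, 10.27 and 10.15 on day 5, 9.90 and 10.06 on day 12, and 9.30 and 9.19 on day 26. Both day 26 arrays were below every other array, and the day 5 arrays were above every sham array. The difference from sham was -0.59 ± 0.13 on day 26, a 1.51-fold lower signal, and 0.37 ± 0.13 on day 5 (1.29-fold higher). At days 1, 3 and 12 the differences were 0.24 ± 0.13, -0.01 ± 0.12 and 0.14 ± 0.13 and the samples overlapped sham. Along the order of means (day 5, day 1, day 12, sham, day 3, day 26) no step but the last was beyond the spread. With any 1 array left out, day 26 stayed 0.49 to 0.69 below sham, while day 1 ran from 0.10 to 0.38 and day 12 from 0.04 to 0.24, and the sign on day 3 was positive (0.09) with sham day 1 alone as reference. The day 1 arrays lay above all sham arrays once array medians were made equal. The part of the lymphocyte, smooth muscle, and erythroid and platelet lists, which differed from sham on day 26, was not tested here either. With the average of the macrophage, endothelial and fibroblast lists as a covariate the day 26 difference was -0.64, and with the atrial list it was -0.77.

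*Tmem109* (chromosome 19, 10870657 to 10881743) lay above sham on all 5 days and was highest on day 5. Sham arrays had a log2 signal of 8.63 and 8.84 on day 1 and 8.72 on day 3. After protons the signal was 9.01 and 8.87 on day 1, 9.09, 9.02 and 8.90 on day 3, 9.37, 9.39 and 9.36 on day 5, 9.15 and 9.06 on day 12, and 9.17 and 9.19 on day 26. Every proton array exceeded every sham array, by little on day 1 and by most on day 5. Differences from sham were 0.21 ± 0.09 on day 1, 0.27 ± 0.08 on day 3, 0.64 ± 0.09 on day 5 (1.56-fold), 0.37 ± 0.09 on day 12 and 0.45 ± 0.09 on day 26. Day 5 exceeded day 26 beyond the spread, days 26, 12, 3 and 1 did not differ from their neighbours by more than it, and day 1 exceeded sham. The 3 days from 5 to 26 kept the 3 highest means. With the average of the macrophage, endothelial and fibroblast lists as a covariate the differences were 0.26, 0.27, 0.67, 0.42 and 0.50 from day 1 to day 26.

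*Slc30a5* (chromosome 13, 100802645 to 100833480) stood above sham on all 5 days. Its log2 signal was 6.85 and 6.96 on the sham arrays of day 1 and 7.00 on that of day 3. It was 7.55 and 7.56 on day 1 after protons, 7.21, 7.23 and 7.44 on day 3, 7.47, 7.49 and 7.39 on day 5, 7.27 and 7.50 on day 12, and 7.36 and 7.21 on day 26. No proton array came down to the highest sham array. Differences from sham were 0.62 ± 0.11 on day 1 (1.53-fold), 0.36 ± 0.10 on day 3, 0.50 ± 0.11 on day 5, 0.45 ± 0.11 on day 12 and 0.35 ± 0.11 on day 26. Day 1 lay above day 5 and day 26 above sham beyond their spread, and the steps from day 5 through days 12 and 3 to day 26 were within it. At day 1 the neutrophil list was also high, as given above, and the erythroid and platelet list (5 of 11 markers, *Itga2b* not past the filter) had means of 7.91 to 9.09 against 6.73 to 8.15 in sham; the part of either list was not tested. With the average of the macrophage, endothelial and fibroblast lists as a covariate the *Slc30a5* differences were 0.52, 0.36, 0.45, 0.36 and 0.26 from day 1 to day 26.

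*Tmem109* and *Slc30a5* are the membrane proteins whose genes stood above sham throughout, and their windows are shown for what the letters around the start hold (RefSeq, GRCm38.p6, minus strand, 5′ to 3′, chr19:10881694-10881993 and chr13:100833378-100833677). Capitals mark the same 6 motifs.
Tmem109: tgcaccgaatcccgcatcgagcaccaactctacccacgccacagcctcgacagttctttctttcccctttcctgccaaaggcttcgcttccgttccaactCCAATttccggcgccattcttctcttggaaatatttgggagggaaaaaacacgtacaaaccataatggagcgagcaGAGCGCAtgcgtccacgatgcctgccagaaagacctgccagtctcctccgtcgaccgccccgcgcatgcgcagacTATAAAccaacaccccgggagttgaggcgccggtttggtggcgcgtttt
Slc30a5: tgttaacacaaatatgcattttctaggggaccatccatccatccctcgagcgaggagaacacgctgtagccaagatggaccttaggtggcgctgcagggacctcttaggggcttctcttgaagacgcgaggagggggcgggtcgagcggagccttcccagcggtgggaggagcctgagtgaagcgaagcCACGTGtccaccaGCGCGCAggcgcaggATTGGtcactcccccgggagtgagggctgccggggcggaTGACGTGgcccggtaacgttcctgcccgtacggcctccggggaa
The *Slc30a5* window spelled an E-box 61 bases before the start, a metal response core 48 before, a reversed CCAAT box 33 before and an unfolded protein response core 6 after it. Of all windows 7.15% held the E-box, 25.7% a metal response core and 2.01% the unfolded protein response core, whose letters overlap those of the E-box and of the cAMP response element (1.79%). In the *Tmem109* window a CCAAT box lay 150 and a metal response core 74 bases before the start, and TATAAA began 1 base after it (13.6% of windows hold it). Among the windows not printed, those of *Rnf144b* held metal response cores and TATAAA, and that of *Ctnnal1* held none of the 6 motifs. A match is a run of letters and no evidence of binding.

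**Figure D2:**
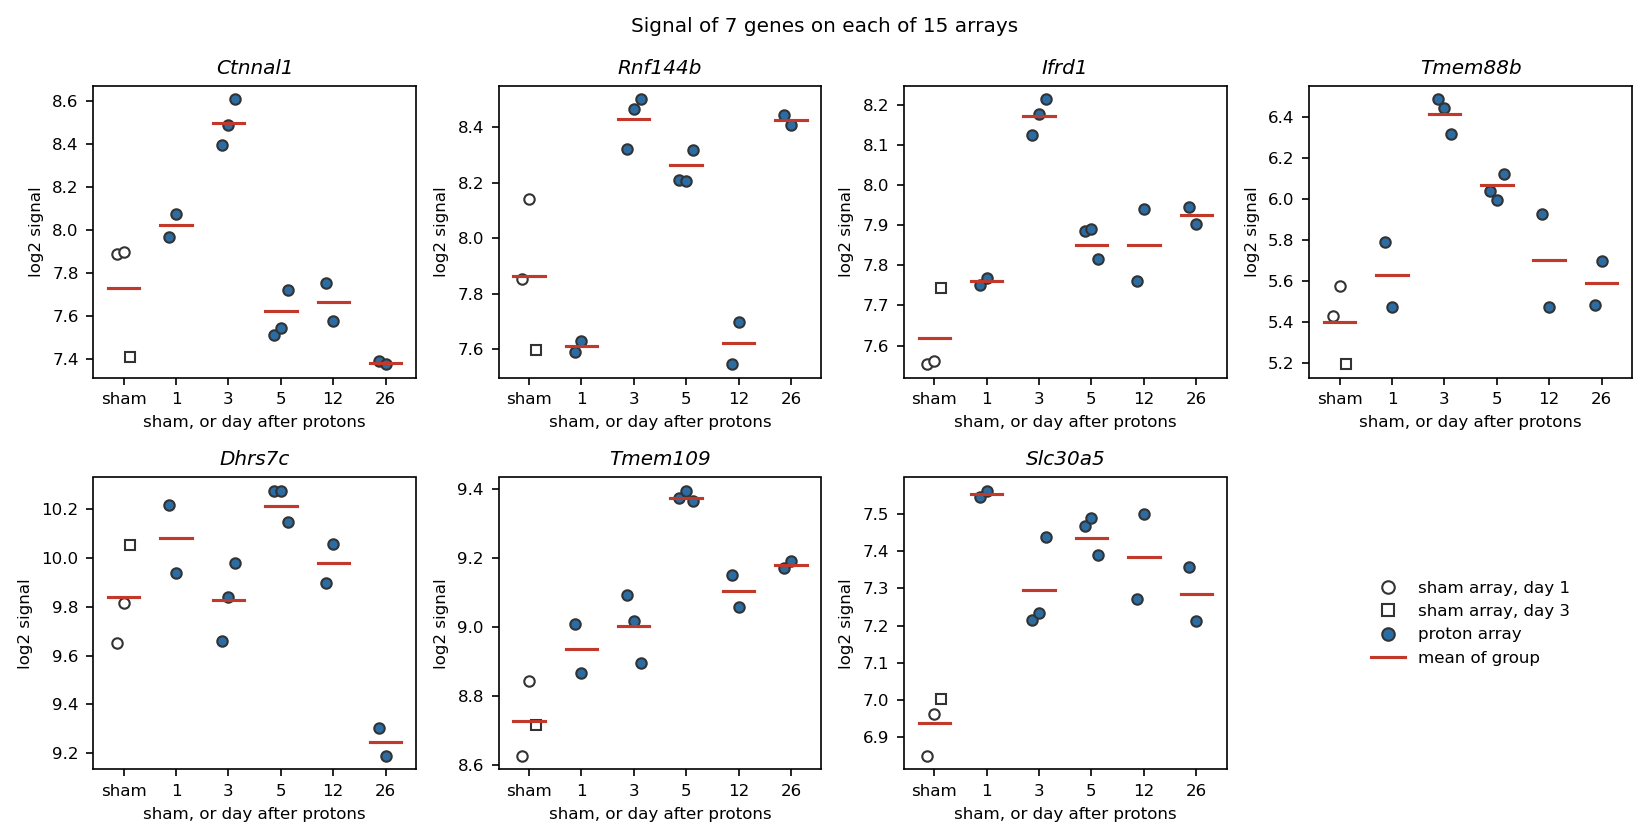
Log2 signal (y) of each gene on each of the 15 arrays, by sham or by day after protons (x); open symbols are sham arrays (circles day 1, square day 3), filled circles are proton arrays, and red bars are group means with the near-identical day 5 arrays averaged. Ctnnal1, Ifrd1 and Tmem88b are highest on day 3, Tmem109 and Dhrs7c on day 5, Slc30a5 on day 1, and Rnf144b is high on days 3, 5 and 26.

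Side by side, day 3 held the highest mean of 4 genes (*Ctnnal1*, *Rnf144b*, *Ifrd1*, *Tmem88b*), day 5 of *Dhrs7c* and *Tmem109*, and day 1 of *Slc30a5*. All samples lay above all sham samples for 4 of the 7 on day 1, where 14.2% of all genes tested did so. The counts were 6 on day 3 (8% of all genes), 6 on day 5 (16.8%), 3 on day 12 (9.92%) and 4 on day 26 (24.7%). Below all sham samples were *Ctnnal1* and *Dhrs7c* on day 26, against 14.1% of all genes. No gene of the 7 was below all sham samples on the other days, where 14.9% (day 1), 4.39% (day 3), 15.8% (day 5) and 11.2% (day 12) of all genes were. The genes were chosen on these contrasts, so nothing is read from the counts. The median difference of the 7 from sham was 0.23, 0.55, 0.40, 0.23 and 0.31 from day 1 to day 26, and that of all genes tested was between -0.01 and 0.05. All samples lay above all sham samples on 5 of 5 days for *Tmem109*, *Ifrd1* and *Slc30a5*, on 3 for *Rnf144b*, on 2 for *Ctnnal1* and *Tmem88b*, and on 1 for *Dhrs7c*. All 5 differences from sham of a gene share the same sham samples. The share of all genes above sham on as many days was not taken, so nothing is read from these counts of days either.

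**Figure D3:**
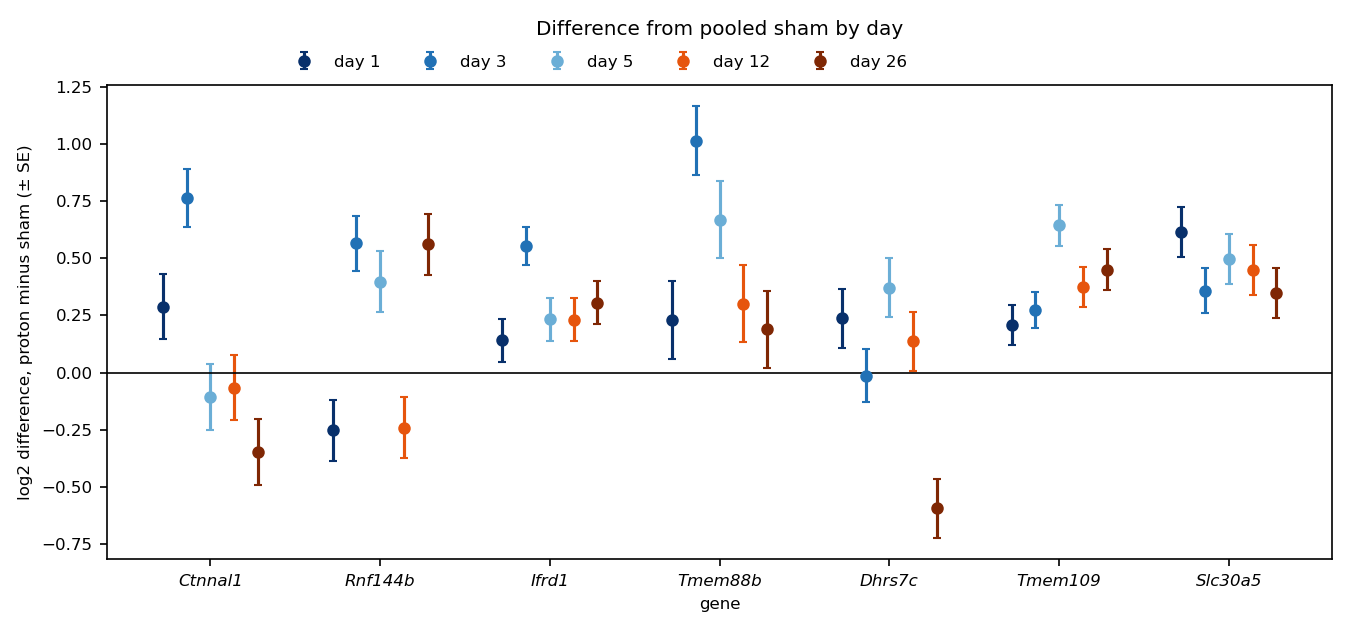
Log2 difference of each proton day from the 3 sham samples (y, points, with the SE of the fit as bars) for each gene (x), coloured by day. Tmem88b on day 3 is the highest point (1.02) and Dhrs7c on day 26 the lowest (-0.59), while all 5 points of Ifrd1, Tmem88b, Tmem109 and Slc30a5 are above 0.

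Among the 21 pairs of the 7 genes, Pearson correlations over the 14 samples had a median of 0.35 and ran from -0.42 (*Rnf144b* with *Dhrs7c*) to 0.71. After *Ifrd1* with *Tmem88b* came *Ctnnal1* with *Tmem88b* (0.69), *Rnf144b* with *Ifrd1* (0.60), *Rnf144b* with *Tmem88b* (0.58) and *Tmem109* with *Slc30a5* (0.55). At day 26 *Rnf144b* was high and *Dhrs7c* at its lowest. These correlations are descriptive, since the samples share days and the genes were picked on them.

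For each gene, the 3 other genes with the highest and the 1 with the lowest correlation over the same 14 samples were listed. They are extremes picked from the 12102 genes tested, over samples that share days and arrays. Their correlations are descriptive, and shared regulation was not tested. *Ctnnal1* was followed by *Phka1*, a subunit of muscle phosphorylase kinase (r = 0.92), whose mean log2 signal was 8.41 in sham, 9.03 on day 3 and 8.05 on day 26. The next were *Mfn1*, a mitochondrial fusion protein (0.92), and *Homer1*, a postsynaptic and muscle scaffold (0.91), and *Cdr2l* ran most against it (-0.85). *Rnf144b* was followed by *Zbtb16*, the transcriptional repressor PLZF (0.94), which had the same alternation: 8.78 in sham, 8.52 on day 1, 9.60 on day 3, 9.64 on day 5, 8.57 on day 12 and 9.66 on day 26. *Rhobtb1* (0.93), and *Tacc2*, a centrosome-associated protein (0.90), came next, with *Cdk5rap3* at the other end (-0.84).

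Nearest to *Ifrd1* were the splicing regulator *Sfswap* (0.90), the microRNA gene *Mir504* (0.89) and *D130007C19Rik* (0.89), and farthest was the aminopeptidase *Dnpep* (-0.81). *Tmem88b* had *H3c4* (0.90), *Lcmt2* (0.90) and *Sec61a2*, a subunit of the protein translocon (0.86), and against it *Capza1*, an actin capping protein (-0.86). The *H3c4* signal is uncertain, because histone H3 genes are near-identical copies, and its sham mean of 4.49 was below the filter. Of the genes nearest to *Dhrs7c*, the vessel growth factor *Angpt1* (0.86) had a mean of 7.30 in sham and 6.37 on day 26, *Tmx1*, a thioredoxin-related protein of the endoplasmic reticulum, had 8.58 and 8.35 (r = 0.83), and *Stc2*, a secreted stanniocalcin, had 6.85 and 6.51 (r = 0.83). *Atf5*, a stress-responsive transcription factor, ran against *Dhrs7c* (-0.90), with 6.28 in sham and 6.87 on day 26.

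*Tmem109* was nearest to 2 genes of small nucleolar RNAs of the H/ACA class, *Snora44* (0.90) and *Snora73a* (0.88), and to *Mfsd8*, a lysosomal membrane protein (0.88). *Snora44* had a mean of 6.28 in sham and 7.84 on day 5, the day on which *Tmem109* was highest. Farthest from it was *Ube2n*, a ubiquitin-conjugating enzyme (-0.89). *Slc30a5* was nearest to *Alg9*, a mannosyltransferase of the endoplasmic reticulum (0.90), *Ptpn1*, a tyrosine phosphatase anchored there (0.88), and *Cers5*, a ceramide synthase (0.87). *Mrpl42*, a protein of the mitochondrial ribosome, ran against it (-0.94) over a small scale, with 11.49 in sham and 11.31 on day 1.

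**Figure D4:**
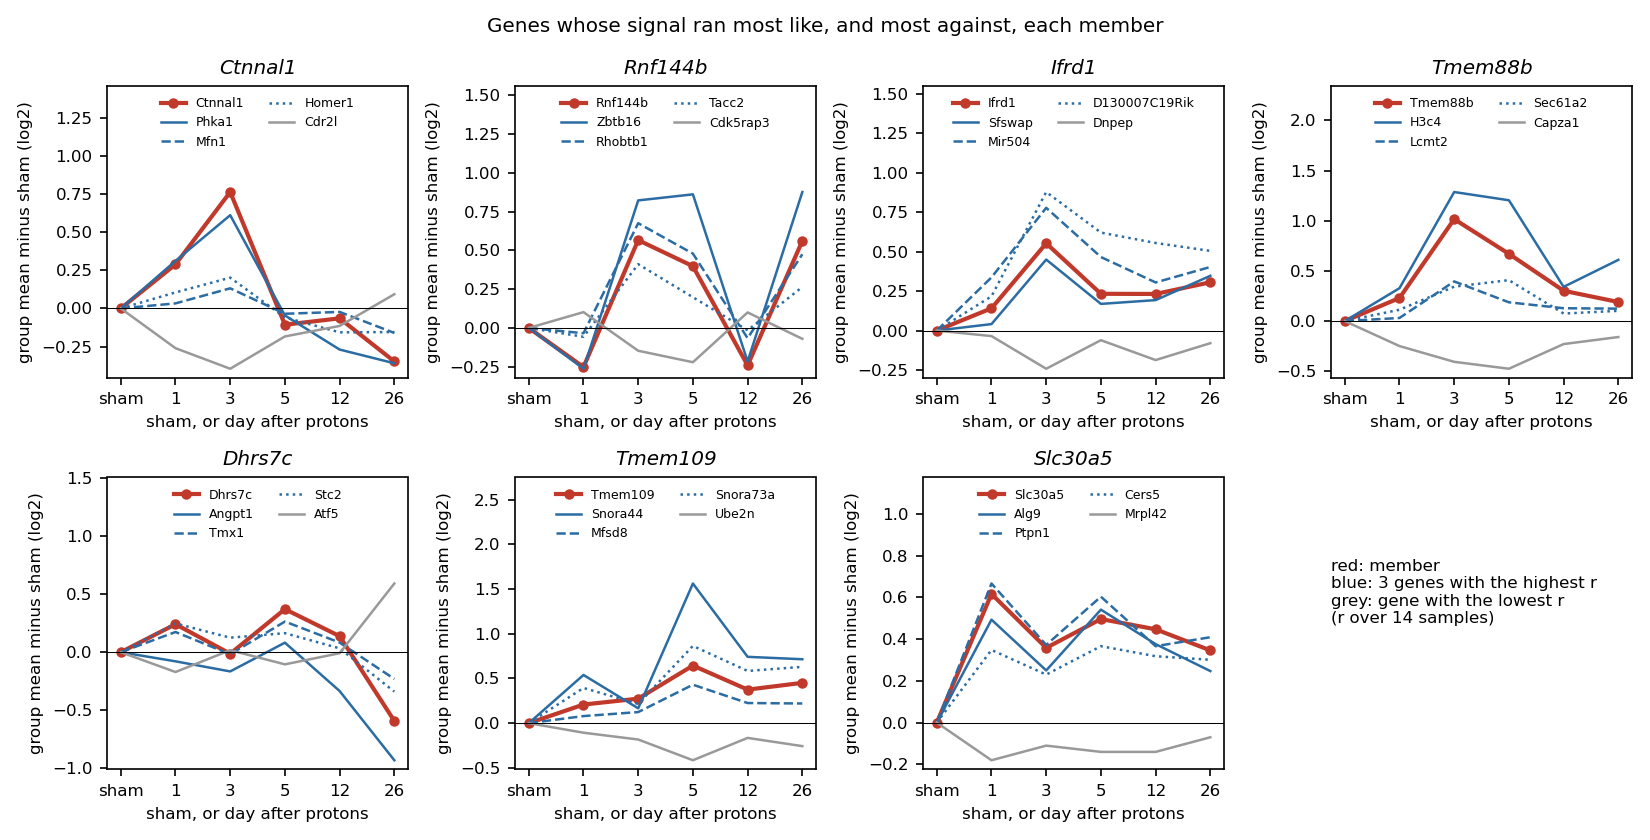
Group mean minus sham mean (y, log2 signal) by sham or day after protons (x) for each gene in red, the 3 genes with the highest correlation to it over 14 samples in blue and the 1 with the lowest in grey. Zbtb16 follows the alternation of Rnf144b on days 3, 5 and 26, and Atf5 is highest on day 26, where Dhrs7c is lowest.

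The relatives and pathways of the 7 genes were read from 8 lists with 152 genes tested in all. In limma's test, with Benjamini-Hochberg adjustment over all 12102 genes at 0.05, 0 of the 152 passed at any day against sham or among the proton days. At an unadjusted p under 0.05 there were 9 on day 1, 16 on day 3, 18 on day 5, 12 on day 12, 21 on day 26 and 12 in the F-test among days. Over all genes tested the same test called 0% on day 1, 0.00826% on day 3, 0.0496% on day 5, 0% on day 12, 0.0413% on day 26 and 0% among days (666, 1072, 1088, 969, 1727 and 1020 at an unadjusted p under 0.05). The list genes are therefore given by value, and none is said to have changed.

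Of the catenins and intercalated disc genes around *Ctnnal1*, 14 of 15 were tested, with a median difference of 0.14 on days 1 and 3 and -0.03 on day 26. The desmosomal genes *Dsc2* and *Dsg2* had the widest ranges between days: *Dsc2* was 0.19 ± 0.12 on day 1 and -0.33 ± 0.12 on day 26, and *Dsg2* 0.35 ± 0.11 on day 1 and -0.12 ± 0.11 on day 26. *Akap13*, an anchoring protein of protein kinase A, was 0.34 ± 0.12 on day 3, the peak day of *Ctnnal1*. *Ctnna1*, the alpha-catenin most like it, had a range of 0.29, highest on day 1 (0.13 ± 0.11), and *Ctnna3* one of 0.19.

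Of the RING-between-RING ligases 12 of 14 were tested, with a median of at most 0.08. *Rnf144a*, the closest relative of *Rnf144b*, had a different course: -0.36 ± 0.13 on day 3, when *Rnf144b* was high, and 0.29 ± 0.15 on day 26, when *Rnf144b* was high again. Of the p53 targets 18 of 22 were tested, with medians of 0.10 on day 1, 0.11 on day 3, 0.09 on day 12 and 0.07 on day 26. On day 26, where the median of all genes was 0.05, 15 of the 18 lay above the sham mean. On day 5, when *Rnf144b* was high, 8 of the 18 lay above and 10 below the sham mean. *Plk2*, *Tnfrsf10b* and *Btg2* had the widest ranges, 0.67, 0.57 and 0.45, each gene being a known p53 target. *Plk2* was highest on day 12 (0.27 ± 0.25 against sham), *Tnfrsf10b* on day 1 (0.54 ± 0.25) and *Btg2* on day 12 (0.43 ± 0.37). The part of p53 in the course of *Rnf144b* was not tested.

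The IFRD, SIN3 and MEF2 list (19 of 21) had medians from -0.06 to 0.01, and on day 3, when *Ifrd1* was highest, 15 of its 19 genes lay below the sham mean. *Ifrd2*, the nearest relative, differed from sham by no more than 0.10 ± 0.15, on day 26. In the TMEM88 and canonical Wnt list (23 of 27) the medians were at most 0.10, with 20 of 23 above the sham mean on day 26, where the median of all genes was 0.05. *Tmem88* itself was -0.56 ± 0.22 on day 3, the day on which *Tmem88b* was 1.02 higher than sham.

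Short-chain dehydrogenases (25 of 32 tested) had medians of -0.11 to -0.13 from day 5 on, with 20, 19 and 18 of 25 below the sham mean on days 5, 12 and 26. *Hsd17b7*, an enzyme of sterol and cholesterol synthesis, came nearest to the threshold of the 152, with -0.77 ± 0.14 on day 26 (limma, adjusted p = 0.0528). *Hsd11b1* and *Dhrs4*, the next widest in range between days, were highest on day 26, with 0.49 ± 0.17 and 0.20 ± 0.12. *Dhrs7*, a relative of *Dhrs7c*, was -0.26 ± 0.13 on day 3 and -0.16 ± 0.15 on day 26. *Dhrs7b* was 0.11 ± 0.10 on day 5 and -0.07 ± 0.10 on day 26. Of the sarcoplasmic reticulum calcium genes (20 of 24, medians 0.01 to 0.12), *Trdn*, which anchors calsequestrin at the release channel, was 0.04 ± 0.15 on day 5 and -0.54 ± 0.15 on day 26, the highest and lowest days of *Dhrs7c*. *Atp2a3* and *Sri*, the next widest in range on that list, were highest on day 26, with 0.42 ± 0.22 and 0.05 ± 0.13. *Sri* was lowest on day 5, with -0.37 ± 0.13. *Tmem38a*, another channel of the sarcoplasmic reticulum, had no probe set with a single symbol.

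Zinc transporters and metallothioneins (21 of 27) had positive medians throughout, from 0.06 on day 1 to 0.19 on day 26, and 15 to 18 of the 21 lay above the sham mean. The median of all genes was -0.01 on day 1 and 0.05 on day 26. *Mt1* and *Mt2*, the zinc-binding metallothioneins, were 0.37 ± 0.08 and 0.54 ± 0.15 on day 3 and -0.12 ± 0.09 and -0.07 ± 0.17 on day 12. Of the transporters of the same compartment, *Slc30a6*, its partner, lay between -0.10 and 0.15 and *Slc30a7* between -0.15 and 0.11 over the 5 days. The difference between *Slc30a5* and its partner was not tested.

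Which list genes pass depends on how the samples are handled. *Hsd17b7* passed on day 26 with 15 separate arrays, quantile normalization, a stricter filter, or proton day 3 replicate 3 left out, and *Phlda3* did so with 15 separate arrays and without that same replicate. With the average of the macrophage, endothelial and fibroblast lists as a covariate, *Mt1*, *Mt2* and *Trp53inp1* passed on day 3, *Trp53inp1* on day 5, and *Phlda3*, *Hsd17b7*, *Hrc* and *Calr* on day 26. *Mt2* passed on day 3 without either array of day 12. *Mt1* passed in the F-test among proton days with the same covariate and *Mt2* without day 12 replicate 2. *Trdn* passed on day 26 without proton day 26 replicate 2.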

How the data were processed

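RNA of left ventricular cardiomyocytes was hybridised to 15 arrays. The deposited table holds log2 signal for 34760 probe sets, from 0.123 to 12.9. Per the submitters' processing notes MAS5 was used; the background correction and scaling are not given in the sources used here. Of the probe sets, 21640 had 1 gene symbol, 1321 several and 11799 no entry in the array's annotation, and 21553 of the first matched the RefSeq table of GRCm38.p6, which gave positions. Per gene the single-symbol probe set with the highest mean was kept (954 genes had several), and genes above the median of all probe sets, 5.00, were tested, 12102 in all.

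Models were fitted with limma 3.58.1 (lmFit, eBayes with a variance trend) in R 4.3.3 on 14 samples in 6 groups, with 8 residual and 12.1 moderated degrees of freedom. Proton day 5 replicates 1 and 2 were averaged. Each proton day was set against the 3 sham samples, and an F-test compared the proton days; the Benjamini-Hochberg adjustment ran over the 12102 genes, with a threshold of 0.05. The fit was tested on simulated data. Errors of differences are standard errors of the fit; the number of arrays limits the precision. The 7 genes, the 8 lists, the marker lists and the alternatives were chosen with earlier results of these data known. Named genes are the 7 and, for each, the 3 nearest and 1 farthest by Pearson correlation. List genes were taken from those past the threshold, the 3 of each list with the widest range between days and the nearest relatives. Not all of these are named in the text. Genes that pass only under an alternative were named after their values were seen. Equal replicate numbers were not taken as pairs: of 31 pairs of equal number in different groups, 10 had residual correlations above 0.1 (median -0.00633). Promoter windows came from RefSeq; 6 of the 7 genes had one, *Rnf144b* 2. Motifs were matched by their exact letters on both strands, leaving out chromosome 18. Alternatives covered scaling, filters, probe-set averages, the reference, marker covariates, the replicate block and single arrays left out.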

Additional observations from a re-analysis of the deposited data

Results flagged for a closer look

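*Ctnnal1* lay above every sham sample at day 3 and below every sham sample at day 26, and the distance between those days was 1.11 on the log2 scale. Its day 26 arrays (7.39 and 7.38) were only just below the lowest sham array (7.41), with a residual SD of 0.165. *Dhrs7c* lay above every sham sample at day 5 and below every one at day 26, with a distance of 0.96. In both cases the samples of one day were all on one side of sham and those of the other day all on the opposite side. Neither difference was tested, since the genes were chosen on these days. Of all genes tested, 8% lay above all sham samples on day 3, 16.8% did so on day 5, and 14.1% lay below them on day 26. The share of genes above sham on one day and below it on another was not taken.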

How the results depend on the processing

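The counts of genes called by limma were small and moved with the handling of samples (main counts 0, 1, 6, 0 and 5 for days 1, 3, 5, 12 and 26, and 0 among days). Counts given here are in that order of days. With 15 separate arrays they were 5 on day 3, 32 on day 5, 2 on day 12, 54 on day 26 and 11 among days. With the average of the macrophage, endothelial and fibroblast lists as a covariate they were 3, 102, 17, 1 and 130, and 63 among days. Equal array medians gave 2 on day 3 and 0 on day 26, quantile normalization 3 and 26, and sham day 1 alone 2 and 2, with 5 among days. Day 26 had 12 calls with no filter and 23 with a stricter one. Without a variance trend there were 3 calls on day 3, 1 on day 5 and 3 on day 26. The replicate block gave 2 calls on day 3, 11 on day 5 and 14 among days. The atrial list, added after the data were seen, gave 1 on day 26. With 1 array left out, counts ran from 0 to 1, 1 to 5, 0 to 7, 0 to 1 and 0 to 41, and from 0 to 5 among days. On day 26 the count was 41 without proton day 3 replicate 3 and 29 without either array of day 12, and 0 without either proton array of day 1, proton day 5 replicate 3, proton day 26 replicate 1 or sham day 1 replicate 1. On day 3 it was 5 without either array of day 12, and on day 5 it was 0 without replicate 3. The cause of these moves was not tested.

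For the 7 genes, 1066 of 1086 alternative values of differences and ranges moved by less than the residual SD and 20 moved by more. Many of these values could not move. Filters and the variance trend leave the differences unchanged, and each of the 7 genes has 1 probe set. Leaving out a proton array changes only its own day and the range. The count therefore says little about how firm the values are. Equal medians moved the median of all genes on day 26 from 0.05 to -0.05, and *Ifrd1*, *Tmem109* and *Slc30a5* there to 0.20, 0.35 and 0.24. Under the replicate block *Ctnnal1* was 0.54 on day 3 and -0.36 on day 5, and *Rnf144b* 0.40 and 0.21. Only *Dhrs7c* on day 3 and *Ctnnal1* on day 12, both near 0, had values of either sign.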
